A study of Mus musculus with 6 samples.

Results

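The genes described here encode receptor chains for interleukin-12 (Il12rb1, Il12rb2), interleukin-18 (Il18r1, Il18rap), interleukin-33 (Il1rl1), interleukin-21 (Il21r), interleukin-7 (Il7r), interferon-gamma (Ifngr1) and the type I interferons (Ifnar1, Ifnar2). They were taken by name from the 56953 genes of the deposited count tables, all 10 of them were present, and all 10 were among the 15591 genes with enough reads to be tested. The study asked how low oxygen changes the transcriptome of natural killer (NK) cells, cytotoxic lymphocytes of the innate immune system. In the hypoxia group, primary NK cells of wild-type C57BL/6 mice, taken from the spleen, were kept for 7 days at 1% O2 (3 libraries). In the normoxia group they were kept for 7 days at 20% O2 (3 libraries). Both groups shared the C57BL/6 strain, the wild-type genotype, 5% CO2 and 1700 U/ml of recombinant human interleukin-2, a cytokine that keeps NK cells alive and dividing and activates them. How many mice were used, their age and how the NK cells were isolated is not given in the sources used here.

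In NK cells, interleukin-12 acts through a receptor of 2 chains. IL-12Rβ1, encoded by Il12rb1, is shared with the interleukin-23 receptor, whereas IL-12Rβ2, encoded by Il12rb2, carries the docking site for the transcription factor STAT4. Interleukin-18 binds IL-18Rα (Il18r1) and then recruits IL-18Rβ (Il18rap), and the pair signals through the adaptor MyD88; together with interleukin-12 it is a strong inducer of interferon-gamma. The interleukin-21 and interleukin-7 receptor chains each pair with the common gamma chain encoded by Il2rg, and the interferon receptors signal through JAK kinases to STAT proteins.

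Of the 10 receptor genes, Il12rb2 and Il7r were higher in hypoxia, and Ifngr1 and Il12rb1 were lower. Il12rb2 was 1.57-fold higher in hypoxia, Il7r 6.42-fold higher, Ifngr1 1.49-fold lower and Il12rb1 1.22-fold lower. The other 6 (Il18r1, Il18rap, Il21r, Il1rl1, Ifnar1 and Ifnar2) did not pass the test. The test was the quasi-likelihood F-test of edgeR over all 15591 genes, with p-values adjusted by the Benjamini-Hochberg method and called at 0.05. By the same rule 11.2% of all tested genes were higher and 9.72% lower in hypoxia, so 2 of 10 in each direction is to be read against that background. When the replicate number was a term of the model, Ifnar1 and Il18rap also passed as lower, which made 2 higher and 4 lower among the 10, against 19.2% higher and 20% lower of all tested genes. Without both libraries of replicate 1, the count was again 2 higher and 2 lower. The median log2 fold change (hypoxia over normoxia) was -0.17 over the 10 genes and -0.0052 over all tested genes. Because these are bulk samples, fewer cells of a type and less RNA per cell cannot be told apart.

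**Figure D1:**
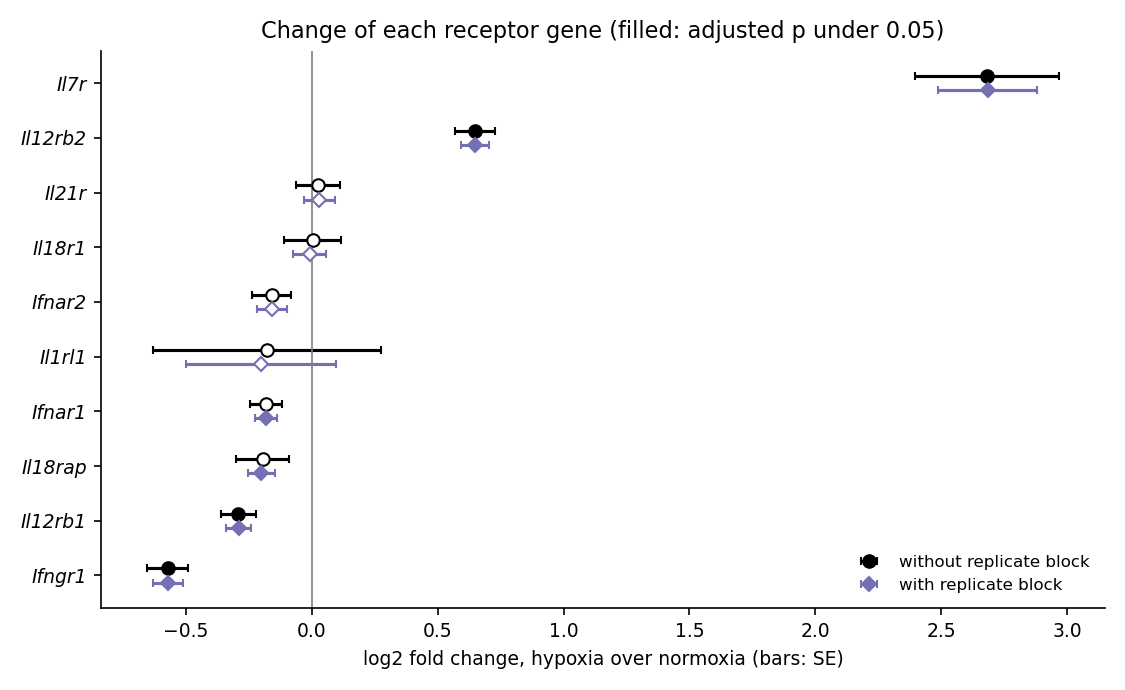
Log2 fold change of each receptor gene, hypoxia over normoxia (x axis), with its SE as a bar, from edgeR without (black circles) and with (purple diamonds) the replicate number in the model; filled symbols have an adjusted p under 0.05. Il7r (2.68) and Il12rb2 (0.65) lie to the right, Ifngr1 (-0.57) and Il12rb1 (-0.29) to the left, and Ifnar1 and Il18rap are filled only with the replicate number in the model.

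The libraries were alike in depth, with 55104810 to 55794698 estimated counts each and 24096 to 26483 genes above 0. Hypoxia and normoxia separated along the first principal component (55.5% of the variance), and the second (22.0%) set the hypoxia and normoxia libraries of replicate 1 (23.2 and 35.0) apart from the other 4 (-20.2 to -11.4). Of 10 NK cell markers, all detected, 1 (Eomes) passed the test as lower and none as higher, against 9.72% and 11.2% of all tested genes. With the replicate number in the model 4 were lower and 2 higher, against 20% and 19.2% of all tested genes. Without hypoxia replicate 3, 3 of them were lower, while over all genes 1136 were lower, against 1516 with all libraries. Their summed level was 14925 to 17791 CPM (counts scaled to a common library size) in hypoxia and 15826 to 17064 CPM in normoxia, most of it from the cytotoxic granule genes Gzmb (11737 ± 1431 CPM in hypoxia against 11985 ± 697 CPM in normoxia, SD, n = 3 each) and Prf1. All CPM values given here are scaled by the TMM factors of edgeR, and 1 count was worth 0.0173 to 0.0190 CPM.

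The stretches around the start sites of 3 of the genes that passed the test are shown because these genes changed most and in both directions. They are RefSeq promoter sequences of the GRCm38.p6 build, an earlier one than the GRCm39 build of the files, from 250 bases before to 50 bases after the start of the gene, on the gene's own strand and 5′ to 3′. Capitals mark each match to GCGTG (a core of the hypoxia response element) or TTCNNNGAA (a STAT motif), on either strand. ACGTG, the other common core of that element, GTAAACA (FOXO) and GGTGTGA (T-box) were searched too and had no match in these 3 stretches. A match is a description of the letters and no evidence of binding.
Il12rb2, chr6:67376139-67376438, minus strand: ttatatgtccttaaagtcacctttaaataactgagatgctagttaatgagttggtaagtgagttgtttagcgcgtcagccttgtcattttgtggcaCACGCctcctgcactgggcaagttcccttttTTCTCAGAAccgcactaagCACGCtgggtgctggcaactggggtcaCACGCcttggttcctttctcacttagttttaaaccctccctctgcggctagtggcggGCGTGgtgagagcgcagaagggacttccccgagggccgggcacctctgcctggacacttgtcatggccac
Il7r, chr15:9529827-9530126, minus strand: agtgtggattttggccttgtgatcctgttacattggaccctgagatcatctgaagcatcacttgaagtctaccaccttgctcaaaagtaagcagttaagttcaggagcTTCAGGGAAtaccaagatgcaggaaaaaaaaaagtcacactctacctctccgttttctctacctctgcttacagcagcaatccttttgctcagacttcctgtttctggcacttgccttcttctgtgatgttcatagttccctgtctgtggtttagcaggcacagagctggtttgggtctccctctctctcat
Ifngr1, chr10:19591699-19591998, plus strand: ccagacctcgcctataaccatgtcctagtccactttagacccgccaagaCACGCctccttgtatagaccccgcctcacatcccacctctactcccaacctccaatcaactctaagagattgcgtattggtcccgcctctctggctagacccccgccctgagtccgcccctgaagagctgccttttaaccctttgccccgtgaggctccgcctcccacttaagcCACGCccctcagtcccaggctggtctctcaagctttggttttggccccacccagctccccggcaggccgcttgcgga

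The Il12rb2 stretch held 4 matches to GCGTG, 154, 104, 77 and 20 bases before the start, and 1 STAT motif 123 bases before it. Of the 32851 promoters in the same RefSeq table, 32.4% held at least 1 GCGTG and 1.33% held 4 or more, and 8.30% held the STAT motif. The Ifngr1 stretch held 2 matches to GCGTG, 201 and 27 bases before the start, and 11.1% of all promoters held 2 or more. The Il7r stretch held no GCGTG and had 1 STAT motif 142 bases before the start. The base composition differed along with these counts: 53.0% of the bases were G or C in the Il12rb2 stretch, 45.7% in the Il7r stretch and 60.3% in the Ifngr1 stretch, with a median of 52.7% over all promoters. Of the 10 receptor genes, 9 had an entry in the table. Il12rb1, which also passed the test, had none, so its promoter could not be shown. Matches were not limited to genes that passed the test. Among those that did not, Ifnar1 held 2 matches to GCGTG and 1 STAT motif, Ifnar2 held 1 STAT motif, and in 1 of their listed promoters Il1rl1 held 1 GCGTG and Il18r1 held 2 STAT motifs.

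Il12rb2, which encodes the signalling chain of the interleukin-12 receptor, was the most abundant of the 10 genes in every library. Its level was 901, 868 and 957 CPM in the hypoxia libraries of replicates 1, 2 and 3 and 616, 562 and 562 CPM in the normoxia libraries. All 3 hypoxia libraries lay above all 3 normoxia libraries. The means were 909 ± 44.7 CPM in hypoxia against 580 ± 31.1 CPM in normoxia (SD, n = 3 each), a log2 fold change of 0.65 (standard error 0.08, edgeR adjusted p = 0.00047). Il12rb2 shares up to 1519 exon bases with Serbp1, which encodes an RNA-binding protein and lies on the opposite strand in the GENCODE M21 annotation. The library kit was strand-specific, but the strand setting of the counting is not given in the sources used here, and without it reads of the shared bases cannot be told apart. Serbp1 was at 642, 736 and 829 CPM in hypoxia against 768, 786 and 929 CPM in normoxia, with a log2 fold change of -0.17 (standard error 0.11, edgeR adjusted p = 0.33).

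Il12rb1, the chain that interleukin-12 and interleukin-23 receptors share, was at 223, 231 and 227 CPM in hypoxia against 271, 291 and 272 CPM in normoxia. The hypoxia libraries lay close together and all below the normoxia libraries. The means were 227 ± 3.67 CPM in hypoxia against 278 ± 11.3 CPM in normoxia (SD, n = 3 each), a log2 fold change of -0.29 (standard error 0.07, edgeR adjusted p = 0.017). This call was near the threshold: the edgeR adjusted p was 0.058, 0.080 and 0.052 without hypoxia replicate 1, 2 and 3, 0.075 without normoxia replicate 2, and 0.070 when libraries were scaled by total count alone. The groups did not overlap for 2 of the 10 genes with hypoxia higher (Il12rb2 and Il7r) and for 4 with hypoxia lower (Il12rb1, Ifngr1, Ifnar1 and Ifnar2), against 19.6% and 18.7% of all tested genes.

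The chains of the interleukin-12 receptor moved in opposite directions, and their ratio within a library, which does not depend on depth or scaling, was compared directly. The ratio of Il12rb2 to Il12rb1 counts was 4.04, 3.77 and 4.21 in the hypoxia libraries and 2.27, 1.93 and 2.07 in the normoxia libraries. Every hypoxia ratio was above every normoxia ratio. The mean log2 ratio was 2.00 ± 0.08 in hypoxia and 1.06 ± 0.12 in normoxia (SD, n = 3 each), a 1.92-fold difference. With 3 libraries against 3, the exact two-sided permutation test cannot give a p below 0.1, and it gave 0.1 here (0.175 after adjustment over the 7 subunit pairs compared). Il23r, whose product pairs with IL-12Rβ1 to bind interleukin-23, was at 0.491 ± 0.0671 CPM in hypoxia against 0.382 ± 0.0318 CPM in normoxia (SD, n = 3 each; edgeR adjusted p = 0.36).

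**Figure D2:**
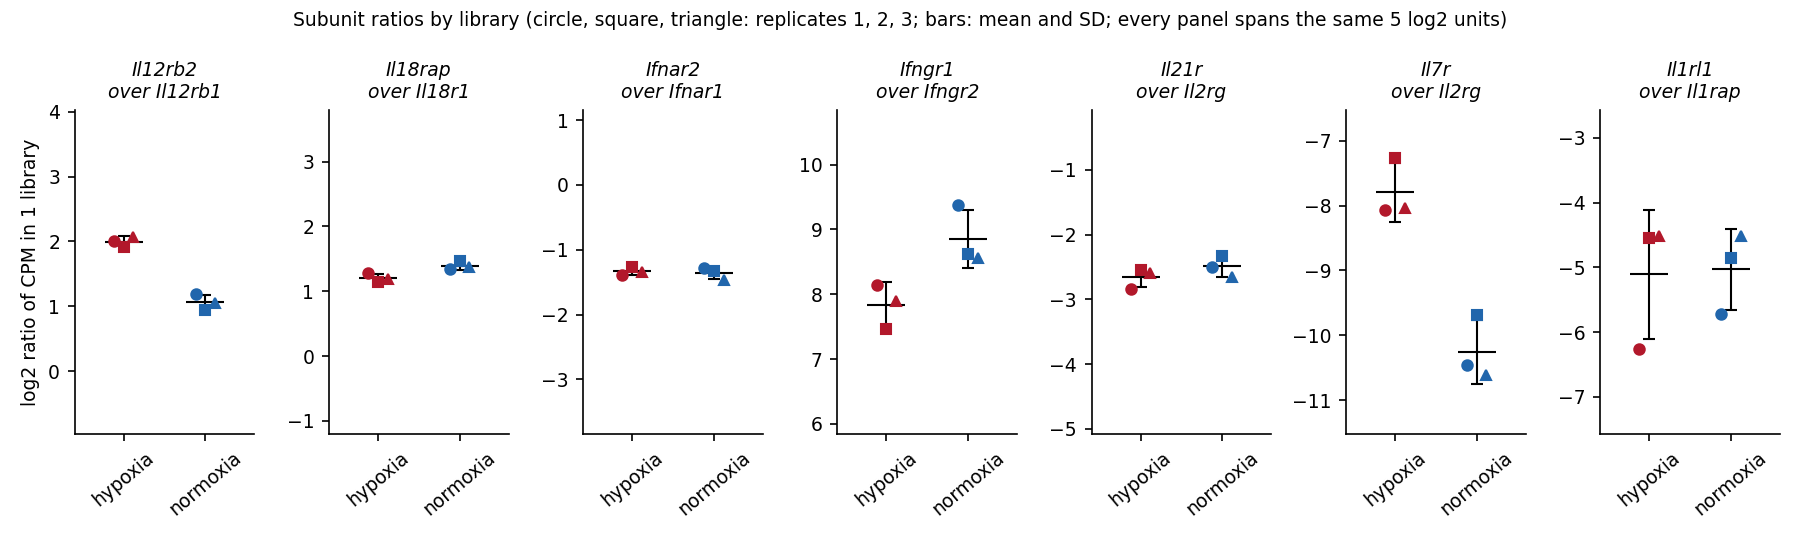
Log2 ratio of the CPM of 2 receptor subunits in the same library (y axis), for hypoxia and normoxia libraries in 7 subunit pairs; symbols are replicates, and bars are the mean and SD. Il12rb2 over Il12rb1 averaged 2.00 in hypoxia and 1.06 in normoxia, and the Ifngr1 over Ifngr2, Il7r over Il2rg and Il18rap over Il18r1 ratios also had no overlap between groups.

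Neither chain of the interleukin-18 receptor passed the test. Il18r1, the ligand-binding chain, was at 65.2, 89.6 and 87.6 CPM in hypoxia against 76.9, 82.6 and 82.3 CPM in normoxia. Hypoxia replicate 1 was the lowest library and hypoxia replicates 2 and 3 the highest, so the groups overlapped, and the log2 fold change was 0.0033 (standard error 0.11, edgeR adjusted p = 0.99). Il18rap, the signalling partner, was at 158, 197 and 201 CPM in hypoxia against 195, 229 and 213 CPM in normoxia. Within each replicate number the hypoxia library was the lower one, although the groups overlapped. Its log2 fold change was -0.20 (standard error 0.11, edgeR adjusted p = 0.23), and the edgeR adjusted p was 0.013 with the replicate number in the model.

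The ratio of Il18rap to Il18r1 was 2.42, 2.20 and 2.29 in hypoxia and 2.53, 2.77 and 2.58 in normoxia. The hypoxia ratios were all below the normoxia ratios, by 0.19 on the log2 scale on average (exact two-sided permutation p = 0.1, the smallest possible, and 0.175 adjusted over 7 pairs). Il1rl1, the interleukin-33 receptor chain known as ST2, was barely detected, at 0.140, 0.502 and 0.462 CPM in hypoxia against 0.247, 0.452 and 0.548 CPM in normoxia. These levels rested on 8 to 29 counts per hypoxia library and 13 to 30 per normoxia library, and the log2 fold change was -0.18 with an SE of 0.45 (edgeR adjusted p = 0.83). At this depth a change of Il1rl1 of the size seen for Il12rb2 would lie within 2 SE. Il1rap, the accessory chain that ST2 needs, was at 11.4 ± 0.565 CPM in hypoxia against 13.2 ± 0.408 CPM in normoxia (SD, n = 3 each). It had a log2 fold change of -0.21 (standard error 0.08), with an edgeR adjusted p of 0.11, and of 0.031 with the replicate number in the model.

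Il1rl1, Il18r1 and Il18rap lie next to each other on mouse chromosome 1, beside other interleukin-1 receptor family genes. Il1r2, which encodes a decoy receptor for interleukin-1, was higher in hypoxia, at 9.58 ± 0.911 CPM, against 3.07 ± 0.450 CPM in normoxia (SD, n = 3 each; log2 fold change 1.64, standard error 0.14, edgeR adjusted p = 5.5e-05). Il1rl2, an interleukin-36 receptor chain, was at 1.88 ± 0.0451 CPM in hypoxia against 1.24 ± 0.275 CPM in normoxia. Its log2 fold change was 0.59 (standard error 0.20), with an edgeR adjusted p of 0.063, and of 0.020 with the replicate number in the model. Il1r1, the signalling interleukin-1 receptor, had too few reads to be tested.

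Il7r, the interleukin-7 receptor alpha chain, had the largest fold change of the 10 genes, at a low level. It was at 2.12, 3.13 and 1.88 CPM in hypoxia against 0.343, 0.489 and 0.274 CPM in normoxia, or 106 to 181 counts per hypoxia library and 15 to 27 per normoxia library. The lowest hypoxia library was several times above the highest normoxia library. The means were 2.38 ± 0.664 CPM in hypoxia against 0.368 ± 0.110 CPM in normoxia (SD, n = 3 each), a log2 fold change of 2.68 (standard error 0.29, edgeR adjusted p = 0.00023).

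Il7r is well known as a marker of T cells and of helper-like innate lymphoid cells (ILCs), so markers of those cells are given beside it. Of 7 T cell markers, 3 were higher in hypoxia (Cd3d, Cd3g and Cd4) and none lower, where 11.2% of all tested genes were higher. With the replicate number in the model 5 were higher, against 19.2% of all tested genes. The summed level of the 7 markers was 146 to 184 CPM in hypoxia against 86.9 to 105 CPM in normoxia. Most of it came from Cd3g (103 ± 10.9 CPM in hypoxia against 56.2 ± 6.79 CPM in normoxia) and Cd3d (42.1 ± 5.05 CPM in hypoxia against 20.1 ± 1.08 CPM in normoxia). Cd3e did not follow them, at 11.3 ± 2.67 CPM in hypoxia against 11.7 ± 1.19 CPM in normoxia (SD, n = 3 each), and Cd4 was at 0.700 ± 0.176 CPM in hypoxia against 0.217 ± 0.107 CPM in normoxia.

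Of 6 markers of ILC1, the tissue-resident relatives of NK cells, 4 were higher in hypoxia and none lower, where 11.2% of all tested genes were higher. With the replicate number in the model all 6 were higher (Itga1 and Tnfsf10 were added), against 19.2% of all tested genes. Their summed level was 547 to 593 CPM in hypoxia against 379 to 447 CPM in normoxia, with Itga1 at 253 ± 8.0 CPM in hypoxia against 220 ± 22.3 CPM in normoxia (edgeR adjusted p = 0.13, and 0.022 with the replicate number in the model). Cxcr6, a chemokine receptor, was at 141 ± 16.2 CPM in hypoxia against 71.0 ± 7.47 CPM in normoxia, and Zfp683, which encodes the residency factor Hobit, was at 3.69 ± 0.254 CPM in hypoxia against 0.874 ± 0.0184 CPM in normoxia (SD, n = 3 each). Tmem176b was at 43.9 ± 3.96 CPM in hypoxia against 18.4 ± 1.99 CPM in normoxia.

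Of the 7 ILC2 markers, 4 were tested, and Hpgds was higher (5.09 ± 0.593 CPM in hypoxia against 2.47 ± 0.345 CPM in normoxia) and Klrg1 lower (13.7 ± 2.77 CPM in hypoxia against 42.4 ± 12.2 CPM in normoxia). For this list and the next, the shares over all tested genes were 11.2% higher and 9.72% lower. Gata3, which NK cells also express, was at 24.9 ± 2.54 CPM in hypoxia against 26.1 ± 2.86 CPM in normoxia and did not pass the test (edgeR adjusted p = 0.70). The summed level of the ILC2 list was 40.6 to 49.6 CPM in hypoxia against 61.5 to 88.0 CPM in normoxia. Most of that sum came from Gata3 and Klrg1, and of these only Klrg1 was called lower. Il13, Il5 and Il17rb averaged at most 0.0646 CPM in either group. Of the 6 ILC3 markers, 4 were tested, 1 was higher in hypoxia and none lower. With the replicate number in the model 1 was higher and 1 lower (Ncr1, edgeR adjusted p = 0.0049, and 0.081 without it), against 19.2% and 20% of all tested genes. Il17a was at 0 in every library, Lta did not pass the test (edgeR adjusted p = 0.43), and the sums, mostly from Ncr1, which NK cells also express, were 117 to 138 CPM in hypoxia against 145 to 157 CPM in normoxia. The part of T cells, ILC1, ILC2 and ILC3 in the Il7r difference was not tested.

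Il21r, the specific chain of the interleukin-21 receptor, was at 80.2, 82.4 and 82.1 CPM in hypoxia against 88.0, 82.1 and 70.6 CPM in normoxia. The hypoxia libraries fell inside the range of the normoxia libraries, and the log2 fold change was 0.02 (standard error 0.09, edgeR adjusted p = 0.88). Il2rg, the common gamma chain, was at 518 ± 48.4 CPM in hypoxia against 451 ± 43.5 CPM in normoxia (SD, n = 3 each). It had a log2 fold change of 0.20 (standard error 0.10), with an edgeR adjusted p of 0.19, and of 0.0075 with the replicate number in the model. The ratio of Il7r to Il2rg was 0.00371, 0.00649 and 0.00382 in hypoxia and 0.000707, 0.00121 and 0.000641 in normoxia, with no overlap and a 5.51-fold difference (exact two-sided permutation p = 0.1, the smallest possible, and 0.175 adjusted over 7 pairs). The ratio of Il21r to Il2rg overlapped between groups (exact permutation p = 0.3, and 0.42 adjusted).

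Ifngr1, the ligand-binding chain of the interferon-gamma receptor, was at 172, 188 and 181 CPM in hypoxia against 284, 275 and 245 CPM in normoxia. Every hypoxia library was below every normoxia library. The means were 180 ± 8.09 CPM in hypoxia against 268 ± 20.5 CPM in normoxia (SD, n = 3 each), a log2 fold change of -0.57 (standard error 0.08, edgeR adjusted p = 0.0012). Ifngr2, the signalling chain of the same receptor, was near the limit of detection, at 0.799 ± 0.235 CPM in hypoxia against 0.582 ± 0.143 CPM in normoxia (log2 fold change 0.45, standard error 0.29, edgeR adjusted p = 0.31). The ratio of Ifngr1 to Ifngr2 was 284, 176 and 239 in hypoxia and 662, 395 and 377 in normoxia, without overlap (exact two-sided permutation p = 0.1, the smallest possible, and 0.175 adjusted over 7 pairs).

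The type I interferon receptor genes had slightly lower means in hypoxia and did not pass the test. Ifnar1 was at 84.2, 85.7 and 89.0 CPM in hypoxia against 96.9, 98.3 and 98.6 CPM in normoxia, with no overlap. Its log2 fold change was -0.18 (standard error 0.06), with an edgeR adjusted p of 0.072, of 0.0080 with the replicate number in the model, and of 0.0499 by the Wald test of DESeq2. Ifnar2 was at 32.3, 35.7 and 35.0 CPM in hypoxia against 39.9, 39.3 and 35.8 CPM in normoxia, where the highest hypoxia library was just below the lowest normoxia library. It shares 315 exon bases with Gm21970, a gene model on the same strand that was at most at 0.525 CPM. Its log2 fold change was -0.16 (standard error 0.08, edgeR adjusted p = 0.18). The ratio of Ifnar2 to Ifnar1 was 0.384, 0.417 and 0.393 in hypoxia and 0.412, 0.40 and 0.363 in normoxia, so the groups overlapped, and the mean log2 ratios differed by 0.02 (exact two-sided permutation p = 0.8). Ifnar2, Il10rb, Ifnar1 and Ifngr2 are neighbours on chromosome 16, and Il10rb, a chain of the interleukin-10 receptor, was at 65.4 ± 7.06 CPM in hypoxia against 71.2 ± 1.41 CPM in normoxia (edgeR adjusted p = 0.35).

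**Figure D3:**
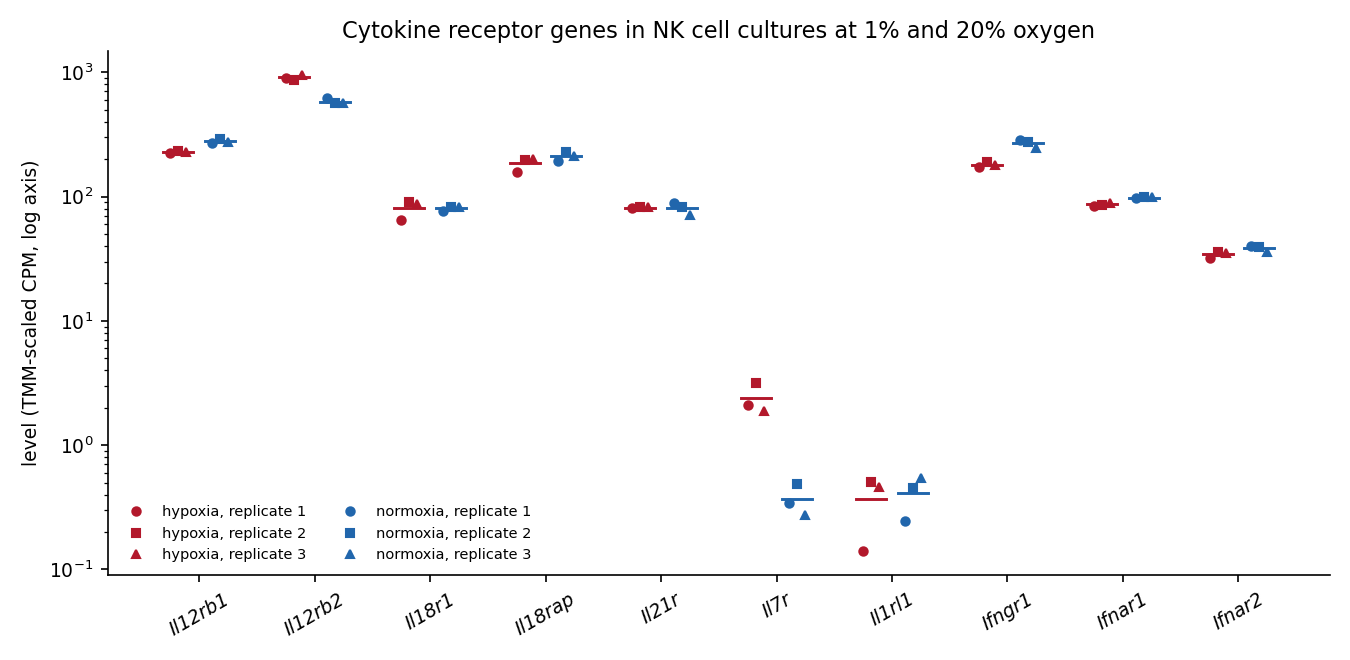
Level of each receptor gene in every library (y axis, TMM-scaled CPM on a log axis), with hypoxia left of normoxia and a symbol for each replicate number. Il12rb2 is highest at 868 to 957 CPM in hypoxia against 562 to 616 CPM in normoxia, and Il7r and Il1rl1 are lowest.

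Levels of different genes were compared per kilobase of the longest coding transcript. On that scale Il12rb2 was at 303 ± 14.9 CPM per kilobase in hypoxia and 193 ± 10.4 in normoxia (SD, n = 3 each), in the 98.3rd percentile of the 15212 genes ranked. Ifngr1 followed with 85.3 ± 3.83 CPM per kilobase in hypoxia and 127 ± 9.71 in normoxia, and Il12rb1 with 79.0 ± 1.28 in hypoxia and 96.8 ± 3.94 in normoxia. Then came Il18rap, Il21r, Ifnar1, Il18r1 and Ifnar2, from 37.9 ± 4.86 CPM per kilobase for Il18rap down to 11.3 ± 0.590 for Ifnar2 in hypoxia, and 43.4 ± 3.50 down to 12.6 ± 0.730 in normoxia. Il7r, at 0.672 ± 0.187 in hypoxia and 0.104 ± 0.0310 in normoxia, and Il1rl1, at 0.0694 ± 0.0374 in hypoxia and 0.0784 ± 0.0290 in normoxia, were last. The mean order was the same in both groups. Neighbours in that order whose libraries overlapped were Il18rap and Il21r, and Ifnar1 and Il18r1, in hypoxia, and Il7r and Il1rl1 in normoxia.

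Of 9 genes for chains that pair with these receptors or share their partners, only Il4ra passed the test, and none was higher. Of all tested genes 9.72% were lower and 11.2% higher. Il4ra, the interleukin-4 receptor alpha chain and the neighbour of Il21r on chromosome 7, was at 90.8 ± 5.66 CPM in hypoxia against 127 ± 5.51 CPM in normoxia (SD, n = 3 each; log2 fold change -0.48, standard error 0.08, edgeR adjusted p = 0.0019). With the replicate number in the model 1 was higher (Il2rg) and 2 lower (Il4ra and Il1rap), against 19.2% and 20% of all tested genes. Crlf2, the thymic stromal lymphopoietin receptor chain that pairs with the Il7r product, was at 47.9 ± 2.60 CPM in hypoxia against 44.7 ± 1.59 CPM in normoxia, Il27ra at 73.7 ± 8.18 CPM in hypoxia against 76.5 ± 9.55 CPM in normoxia, and Il6st at 4.30 ± 0.694 CPM in hypoxia against 4.58 ± 0.778 CPM in normoxia. These 3 had edgeR adjusted p values of 0.37, 0.78 and 0.76.

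The ligand genes of these receptors were mostly close to 0 in the cultures. Of 12 ligand genes, 10 were below 1 CPM in every library, and Il12b and Il21 were at 0 in every library, where 0 counts allow a level of up to 3 counts per library. Ifng was at 52.6 ± 7.67 CPM in hypoxia against 52.4 ± 1.24 CPM in normoxia (log2 fold change 0.0029, standard error 0.10, edgeR adjusted p = 0.99), and Il18 had an edgeR adjusted p of 0.57. Il23a, which encodes the specific subunit of interleukin-23, was the only ligand gene of the 4 tested that passed. It was lower, at 0.585 ± 0.121 CPM in hypoxia against 2.70 ± 0.601 CPM in normoxia (SD, n = 3 each; log2 fold change -2.20, standard error 0.24, edgeR adjusted p = 0.00027).

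Among the 11 JAK and STAT transducers below the receptors, 5 were lower in hypoxia, Irf9 and Stat2 among them, and none higher. Of all tested genes 9.72% were lower and 11.2% higher. The median log2 fold change of the list was -0.24. With the replicate number in the model 7 were lower and 1 higher, against 20% and 19.2% of all tested genes. Without hypoxia replicate 2, 3 were lower, while over all genes 804 were lower, against 1516 with all libraries. Irf9, the DNA-binding part of the complex that type I interferon activates, was at 20.1 ± 0.760 CPM in hypoxia against 58.7 ± 4.29 CPM in normoxia (SD, n = 3 each; log2 fold change -1.55, standard error 0.08, edgeR adjusted p = 5.6e-06). Stat2, its partner, was at 32.7 ± 3.04 CPM in hypoxia against 49.7 ± 6.16 CPM in normoxia (log2 fold change -0.61, standard error 0.11, edgeR adjusted p = 0.0033). Stat4, the main transducer of interleukin-12, was at 144 ± 11.4 CPM in hypoxia against 147 ± 7.07 CPM in normoxia (edgeR adjusted p = 0.83).

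Of 16 tested genes of the interferon response (17 listed), 13 were lower in hypoxia, against 9.72% of all tested genes. None was higher, and the median log2 fold change was -1.58. The list, like the others, was chosen with earlier results of these data known. The 13 calls held in number under all 14 alternative settings. Oasl1, an antiviral gene, was at 0.508 ± 0.0158 CPM in hypoxia against 10.4 ± 1.89 CPM in normoxia (log2 fold change -4.35, standard error 0.19, edgeR adjusted p = 3.2e-06), and Ifi44 was at 0.392 ± 0.117 CPM in hypoxia against 9.94 ± 3.37 CPM in normoxia (log2 fold change -4.66, standard error 0.32, edgeR adjusted p = 2.0e-05). The 3 that did not pass were Irf1, Gbp2 and Socs1. Irf1 was at 90.6 ± 14.1 CPM in hypoxia against 98.1 ± 11.9 CPM in normoxia, Gbp2 at 43.0 ± 8.91 CPM in hypoxia against 39.6 ± 2.38 CPM in normoxia, and Socs1 at 21.0 ± 1.22 CPM in hypoxia against 21.2 ± 2.80 CPM in normoxia. Among the genes for the interferon receptors themselves, the largest log2 fold change was the -0.57 of Ifngr1, and the response list was not tested against them.

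Of 12 tested genes that interleukin-12 and interleukin-18 are known to induce (13 listed), 6 were lower in hypoxia and 1 (Ccl3) higher. The median log2 fold change was -0.31. Of all tested genes 9.72% were lower and 11.2% higher. With the replicate number in the model 7 were lower (Nfkbiz was added) and 2 higher (Ccl4 was added), against 20% and 19.2% of all tested genes. Without normoxia replicate 2, 4 were lower, while over all genes 942 were lower, against 1516 with all libraries. Gadd45b, a stress-response gene, was at 13.2 ± 0.496 CPM in hypoxia against 40.7 ± 1.25 CPM in normoxia (log2 fold change -1.63, standard error 0.07, edgeR adjusted p = 3.2e-06). Zbtb32, a transcription factor that NK cells induce in response to these cytokines, was at 38 ± 4.39 CPM in hypoxia against 126 ± 21.7 CPM in normoxia (log2 fold change -1.74, standard error 0.13, edgeR adjusted p = 3.0e-05). Gadd45g, Csf2, Batf3 and Il2ra were the other 4 of the 6 lower ones. The 5 that did not pass were Ifng, Xcl1, Cd69, Nfkbiz and Ccl4. Ifng had a log2 fold change of 0.0029 (edgeR adjusted p = 0.99), Xcl1 of -0.0082 (edgeR adjusted p = 0.98) and Cd69 of -0.069 (edgeR adjusted p = 0.73). The call of Ccl3 was absent without hypoxia replicate 2 or 3 and without normoxia replicate 2 or 3.

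Of 11 genes that carry the interleukin-18 and interleukin-33 signal from the TIR domain onwards, 2 were lower in hypoxia and 1 higher, and with the replicate number in the model 4 were lower and 2 higher. Over all tested genes the shares were 9.72% lower and 11.2% higher, and 20% lower and 19.2% higher with the replicate number, so these counts do not set the list apart. Nfkb1 was at 172 ± 17.0 CPM in hypoxia against 244 ± 16.6 CPM in normoxia (log2 fold change -0.50, standard error 0.09, edgeR adjusted p = 0.0047). Tab1 was at 18.2 ± 1.80 CPM in hypoxia against 26.9 ± 3.29 CPM in normoxia (log2 fold change -0.57, standard error 0.11, edgeR adjusted p = 0.0057). Map3k7, which encodes the kinase TAK1 that Tab1's product activates, was at 97.7 ± 1.92 CPM in hypoxia against 79.3 ± 3.88 CPM in normoxia, a call that was absent without hypoxia replicate 2 or normoxia replicate 2. The median of the list was -0.04.

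Of 13 inhibitors of these receptors, 2 were higher (Socs2 and Irak3) and 2 lower (Usp18 and Sigirr), near the shares of all tested genes (11.2% higher and 9.72% lower), with a median log2 fold change of -0.0044. With the replicate number in the model 3 were higher (Ptpn6 was added) and 2 lower, against 19.2% and 20% of all tested genes. Usp18, which encodes a protease that binds the Ifnar2 product and dampens its signal, was at 2.45 ± 0.280 CPM in hypoxia against 16.4 ± 1.43 CPM in normoxia (log2 fold change -2.74, standard error 0.12, edgeR adjusted p = 3.2e-06). Socs2 was at 28.4 ± 2.04 CPM in hypoxia against 20.8 ± 1.64 CPM in normoxia (log2 fold change 0.45, standard error 0.09, edgeR adjusted p = 0.0067). A single inhibitor was lower when hypoxia replicate 1, 2 or 3 or normoxia replicate 1 or 2 was left out. Over all genes, 1032, 804 and 1136 were lower without hypoxia replicate 1, 2 and 3. Without normoxia replicate 1 and 2 they were 1636 and 942, against 1516 with all libraries.

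Of 11 transcription factors known to regulate these receptor genes, 4 were higher in hypoxia (Rora, Foxo1, Tcf7 and Ets1) and 1 (Eomes) was lower. Of all tested genes 11.2% were higher and 9.72% lower. With the replicate number in the model 5 were higher (Tbx21 was added) and 2 lower (Runx3 was added), against 19.2% and 20% of all tested genes. Without hypoxia replicate 2, 2 were higher, while over all genes 1160 were higher, against 1745 with all libraries. Foxo1, which is known to activate Il7r in T cells, was at 98.4 ± 10.2 CPM in hypoxia against 61.9 ± 7.99 CPM in normoxia (SD, n = 3 each; log2 fold change 0.67, standard error 0.11, edgeR adjusted p = 0.0022). Rora, a nuclear receptor of ILCs, was at 25.8 ± 5.65 CPM in hypoxia against 13.9 ± 0.743 CPM in normoxia (log2 fold change 0.89, standard error 0.14, edgeR adjusted p = 0.0019). Eomes, an NK cell T-box factor, was at 201 ± 25.4 CPM in hypoxia against 312 ± 28.5 CPM in normoxia (log2 fold change -0.63, standard error 0.11, edgeR adjusted p = 0.0028).

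**Figure D4:**
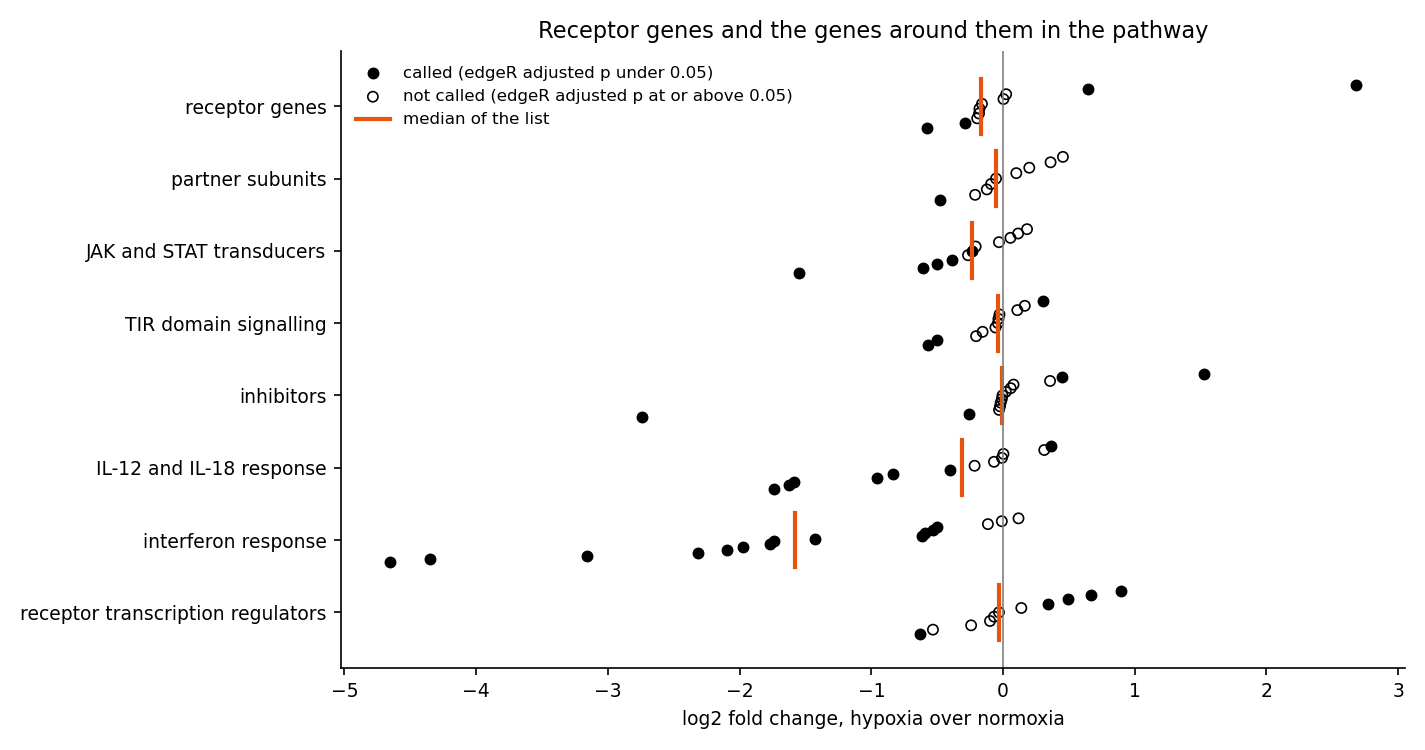
Log2 fold change, hypoxia over normoxia (x axis), of every tested gene of the receptor list and 7 lists around it; filled points have an edgeR adjusted p under 0.05, and the orange bar is the median of the list. The interferon response genes lie farthest to the left, with a median of -1.58, while the receptor genes have a median of -0.17.

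The genes whose levels followed the 4 changed receptor genes most closely were named by Pearson's r of log2 CPM over the 6 libraries, among 9887 genes of at least 5 CPM. They were Chn2 (r = 0.999), Ostf1 (0.998) and Man1a (0.998) for Il12rb2, and Helz2 (0.999), Traf1 (0.998) and Zswim4 (0.996) for Il12rb1. For Il7r they were Spopl (0.999), Rtl6 (0.998) and Id3 (0.998), and for Ifngr1 they were Ifi209 (0.999), Dennd2d (0.999) and Apobec3 (0.997). The 6 libraries share the split into hypoxia and normoxia, so between 619 and 911 genes had an r above 0.9 with each of the 4.

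Markers of other cells that a spleen culture could hold were read as well, and several were higher in hypoxia. Of all tested genes 11.2% were higher and 9.72% lower. Of 9 mast cell and basophil markers, 4 were tested and 3 were higher, with sums of 383 to 437 CPM in hypoxia against 236 to 258 CPM in normoxia. Most of that was Kit, which NK cells can also express, at 330 ± 34.3 CPM in hypoxia against 223 ± 15.6 CPM in normoxia, and Mcpt8, at 79.7 ± 6.61 CPM in hypoxia against 21.1 ± 4.10 CPM in normoxia, while Fcer1a and Ms4a2 stayed below 0.1 CPM. Of 6 macrophage and monocyte markers, 4 were tested, 2 higher and 1 (Cd14) lower, with sums of 50.8 to 83.5 CPM in hypoxia against 15.5 to 29.2 CPM in normoxia that came mostly from Cd68, at 61.9 ± 16.5 CPM in hypoxia against 16.4 ± 6.15 CPM in normoxia. Cd14 was at 1.47 ± 0.303 CPM in hypoxia against 3.87 ± 0.636 CPM in normoxia.

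The B cell sum was 0.996 to 1.14 CPM in hypoxia against 0.256 to 0.525 CPM in normoxia, with Cd79b the 1 of 5 markers that could be tested and higher. The neutrophil sum was 0.683 to 1.92 CPM in hypoxia against 0.127 to 0.323 CPM in normoxia, with S100a8 and S100a9 the 2 of 6 tested and both higher. Of 5 dendritic cell markers, Xcr1 was higher, a call that was absent without hypoxia replicate 2 or 3 or normoxia replicate 2 or 3, and Zbtb46 was lower. Clec9a was at 0 in every library, and the sums were 4.08 to 4.82 CPM in hypoxia against 6.35 to 6.64 CPM in normoxia. The part of these cells in the receptor differences was not tested.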

How the data were processed

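RNA of 3 hypoxia and 3 normoxia libraries was sequenced on DNBSEQ from a strand-specific mRNA kit, per the labels' protocols. The submitters' processing notes name Trim Galore 0.6.4, kallisto 0.4.6, edgeR 3.17 and GRCm39. The strand setting used for counting is not given in the sources used here. Deposited by the authors was an estimated count per gene, not normalized (69.4% of values whole within 1e-06). They also deposited log2 CPM, which equalled a recomputation from the counts with a prior count of 2 (largest difference 0), so the counts were used.

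Estimated counts were rounded and filtered with filterByExpr of edgeR (minimum count 10, minimum total 15), which left 15591 genes. These were scaled with TMM and tested in edgeR 4.0.16 (quasi-likelihood F-test, R 4.3.3), with Benjamini-Hochberg adjustment at 0.05. Subunit ratios (0.01 CPM added) were compared by exact permutation. The script was tested on simulated counts. Alternatives were the replicate block, DESeq2 size factors, library size alone, no or a stricter filter (minimum count 50), DESeq2 1.42.0, limma-voom 3.58.1 and leaving out libraries. Kallisto shares out ambiguous reads by likelihood, so overlapping genes can share counts.

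Symbols and transcript lengths came from GENCODE M21 (GRCm38), which matched 52029 of 56953 IDs, and promoters and gene order from RefSeq (GRCm38.p6). These belong to an earlier build than the files and were used for names, lengths, order and sequence.

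The labels call the libraries biological replicates without saying how many mice they came from, so p-values measure only the spread among these 6 libraries, which may be technical. Across genes, libraries with the same number deviated from the group mean together (correlations of 0.47, 0.33 and 0.30), so by a criterion of 0.1 they count as paired. Hypoxia 2 and normoxia 3, of different numbers, also exceeded it with 0.12. The remaining pairs of different numbers were at -0.35 to -0.013. The main fit and the permutation tests of the ratios were left unpaired, as designed. Counts of the paired fit are given for the lists where it changed them, but its values are not given for every gene. The receptor genes and lists were chosen with earlier results of these data known. Named by rule were the receptor genes, their partners and neighbours, the 2 genes with the smallest p of each other list, the 2 most abundant of each cell-type list and the 3 genes most like each changed receptor gene. Any other gene named was picked after seeing its values. Single-gene results for some list members are not reported here.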

Additional observations from a re-analysis of the deposited data

How the results depend on the processing

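The log2 fold changes of Il12rb2 (0.61 to 0.73), Il7r (2.45 to 2.94) and Ifngr1 (-0.64 to -0.49) kept their direction and passed the threshold under all 14 alternatives, and 2 receptor genes were higher under each of them. Receptor genes called lower numbered 4 with the replicate block, 1 with library size alone and 1 to 2 when 1 library was left out. Over all genes, 2988 were higher and 3120 lower with the replicate block, and 999 were lower with library size alone. Leaving out 1 library gave 1146 (without normoxia replicate 2) to 1980 higher genes and 804 (without hypoxia replicate 2) to 1636 lower genes.

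Changes close to 0 switched sign. Il18r1 was at -0.0090 with the replicate block, -0.0015 with DESeq2 size factors and with the DESeq2 Wald test, -0.0082 without a filter, -0.011 with limma-voom and -0.065 to 0.14 when 1 library was left out. On leaving out 1 library, the log2 changes were -0.062 to 0.094 for Il21r, -0.46 to 0.21 for Il1rl1, -0.14 to 0.041 for Il27ra, -0.22 to 0.0011 for Il6st, -0.13 to 0.026 for Gzmb and -0.15 to 0.0079 for Gata3. The differences of log2 ratios were then -0.42 to 0.50 for Il1rl1 over Il1rap and -0.031 to 0.061 for Ifnar2 over Ifnar1. Library size alone gave 0.027 for Il27ra, 0.051 for Gzmb and 0.017 for Gata3. Gzmb was at 0.027 without both libraries of replicate 1, and Il1rl1 over Il1rap at 0.0065 with 0.1 CPM added. The cause of these changes was not tested. Paired by replicate number, the sign-flip test of a ratio cannot go below an exact p of 0.25, which 4 of 7 pairs reached. The replicate block changed no other call of a receptor gene than those named above and in the results. Few counts limit what can be said of Il1rl1, Ifngr2 and the ligand genes other than Ifng.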

Other observations

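Other cytokine receptor genes, chosen by symbol after the data were seen, were counted in the same way. They include the partner genes and the tested neighbours already described above. Of 29 tested, 4 were higher in hypoxia (Il1r2, Csf2ra, Il13ra1 and Il6ra) and 8 lower (Il4ra, Il3ra, Il20rb, Lifr, Csf2rb, Il2ra, Epor and Il11ra1), with a median log2 fold change of -0.07. Over all tested genes the shares were 11.2% higher and 9.72% lower. With the replicate number in the model, 6 were higher and 11 lower, against 19.2% and 20% of all tested genes. Some calls rested on few counts per library. Il13ra1 had 20 to 23 in hypoxia and 8 to 10 in normoxia, Il6ra 22 to 50 and 12 to 15, and Csf2rb 12 to 28 and 43 to 80. Csf2ra and Il3ra, ligand-binding chains that share the common beta chain, differed in direction. Csf2ra was at 9.22 CPM in hypoxia against 6.66 CPM in normoxia (log2 fold change 0.47, edgeR adjusted p = 0.018). Il3ra was at 8.75 ± 0.336 CPM in hypoxia against 13 ± 1.02 CPM in normoxia (SD, n = 3 each; log2 fold change -0.57, edgeR adjusted p = 0.0026), and the common beta chain gene Csf2rb was at 0.375 CPM in hypoxia against 1.08 CPM in normoxia. Il2rb, the signalling chain for the interleukin-2 added to the cultures, was at 2729 ± 313 CPM in hypoxia against 3366 ± 436 CPM in normoxia (SD, n = 3 each). Its log2 fold change was -0.30, with an edgeR adjusted p of 0.092, and of 0.0010 with the replicate number in the model.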
